A study of Mus musculus with 19 samples.

Results

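The Sox genes examined here are 8 members of the family that codes for transcription factors with an HMG-box DNA-binding domain: Sox5, Sox6, Sox9, Sox8, Sox4, Sox11, Sox12 and Sox18. They were taken by name, with every probe set annotated to them alone, and account for 8 of the 18193 genes tested and 33 of the 45101 probe sets on the array. Expression was measured on 19 Affymetrix mouse arrays, 18 of them from cells of fore and hind limbs taken at postnatal day 3. Each postnatal population is represented by 3 arrays from pooled litters, so a p-value measures the spread between those arrays. All mice are given as wild-type, although the protocol speaks of GFP-labeled animals. The question behind the sort is how skeletal progenitor populations, defined by surface antigens, differ in expression.

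All cells were CD45-Ter119-Tie2-AlphaV+, that is, outside the blood and endothelial gates and positive for integrin alpha V. Within that gate, Thy and 6C3 separate Thy+6C3-, Thy-6C3+ and Thy-6C3- cells, and each of these was split into CD105+ and CD105- populations. Arrays were placed by the population field of the labels. Titles of Thy-6C3+CD105- replicates 2 and 3 name Thy+ instead. Thy1, the gene for Thy, averaged 10.34 and 10.23 on the log2 scale in the Thy+ populations and 5.37 to 5.81 in the Thy- populations, with 5.81 in Thy-6C3+CD105-. Enpep, the peptidase that the 6C3 antibody recognises, averaged 10.84 and 10.97 in the 6C3+ populations and 7.27 to 8.32 in the others. A single array is labelled adult Thy+6C3+CD105+, with limb in its tissue field and sternum and ear in its source field. It enters no test. Poly-A control signal splits the 18 neonatal arrays into 11 high and 7 low arrays, with every population in both sets. The deposited medians of all arrays lie between 5.6 and 6.02, and Thy-6C3+CD105- replicate 2 and Thy+6C3-CD105- replicate 3 have the highest.

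Sox9, of the SoxE group, is required for cartilage formation, and the SoxD proteins Sox5 and Sox6 act beside it on cartilage matrix genes such as Col2a1 and Acan. Sox8 belongs to the SoxE group with Sox9, and in mice it is known to hold back osteoblast differentiation. The SoxC genes Sox4, Sox11 and Sox12 are widely active in embryonic mesenchymal and neural progenitors, while Sox18, of the SoxF group, is known for blood and lymphatic vessel development and for the hair follicle.

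Promoter windows of 300 bases around annotated starts were available from RefSeq (GRCm38.p6) for 6 of the 8 genes, as 11 windows. The windows of Sox5, Sox6 and Sox8 are shown because these genes moved together in the Thy steps described below. Capitals mark ACAAT and its reverse complement ATTGT, a core that Sox HMG boxes are known to bind. The Sox5 window (chr6:143947057-143947356, minus strand) and the Sox6 window (chr7:115824661-115824960, minus strand, 1 of 6 for this gene) lie at starts inside their genes. The Sox8 window (chr17:25570637-25570936, minus strand) lies at the 5′ end of the gene.
Sox5: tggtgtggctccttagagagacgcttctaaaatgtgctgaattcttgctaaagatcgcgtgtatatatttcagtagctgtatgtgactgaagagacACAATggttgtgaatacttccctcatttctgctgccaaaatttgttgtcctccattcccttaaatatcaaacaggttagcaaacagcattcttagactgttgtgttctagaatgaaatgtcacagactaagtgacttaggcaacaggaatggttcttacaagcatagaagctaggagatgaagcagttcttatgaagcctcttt
Sox6: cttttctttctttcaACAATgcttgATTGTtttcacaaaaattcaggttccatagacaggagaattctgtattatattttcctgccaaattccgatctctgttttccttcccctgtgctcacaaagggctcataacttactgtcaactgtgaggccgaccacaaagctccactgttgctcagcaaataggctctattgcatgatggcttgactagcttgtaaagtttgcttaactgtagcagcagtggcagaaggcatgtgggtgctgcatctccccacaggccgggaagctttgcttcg
Sox8: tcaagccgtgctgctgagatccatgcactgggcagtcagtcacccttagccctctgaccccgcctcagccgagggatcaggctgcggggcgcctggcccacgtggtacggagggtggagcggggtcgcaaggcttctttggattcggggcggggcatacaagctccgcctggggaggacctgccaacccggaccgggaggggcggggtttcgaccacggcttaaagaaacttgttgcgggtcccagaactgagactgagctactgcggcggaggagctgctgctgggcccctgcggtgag
Sox5 has 1 match to ACAAT, the Sox6 window has 2, and Sox8 has 0. Both Sox6 matches are also matches to AACAAT, which contains ACAAT, and this window was picked for them. The other 5 Sox6 windows hold 0 to 3 matches to ACAAT and 0 to AACAAT, and those of Sox4, Sox11 and Sox12 hold 0. Searched on both strands, ACAAT occurs in 31% of 32851 mouse promoter windows of this length and AACAAT in 10.7%. The 3 windows also differ in CpG content, with 3 in Sox5, 4 in Sox6 and 21 in Sox8, against a median of 7 over all windows. A match describes the letters of a window and is no evidence of binding.

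Of the 8 genes, 5 differed among the 6 neonatal populations in limma's moderated F-test: Sox5, Sox6, Sox9, Sox8 and Sox18 (adjusted p = 1.18e-05, 0.000429, 0.000242, 7.96e-05 and 0.00145). Over all genes, 10.1% passed the same test. Sox4, Sox11 and Sox12 did not pass (adjusted p = 0.42, 0.224 and 0.848). In bulk RNA of a sorted population, fewer cells that express a gene and less RNA per cell cannot be told apart. Each gene is represented by its probe set of highest mean, and levels are quantile-normalized log2 values.

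**Figure D1:**
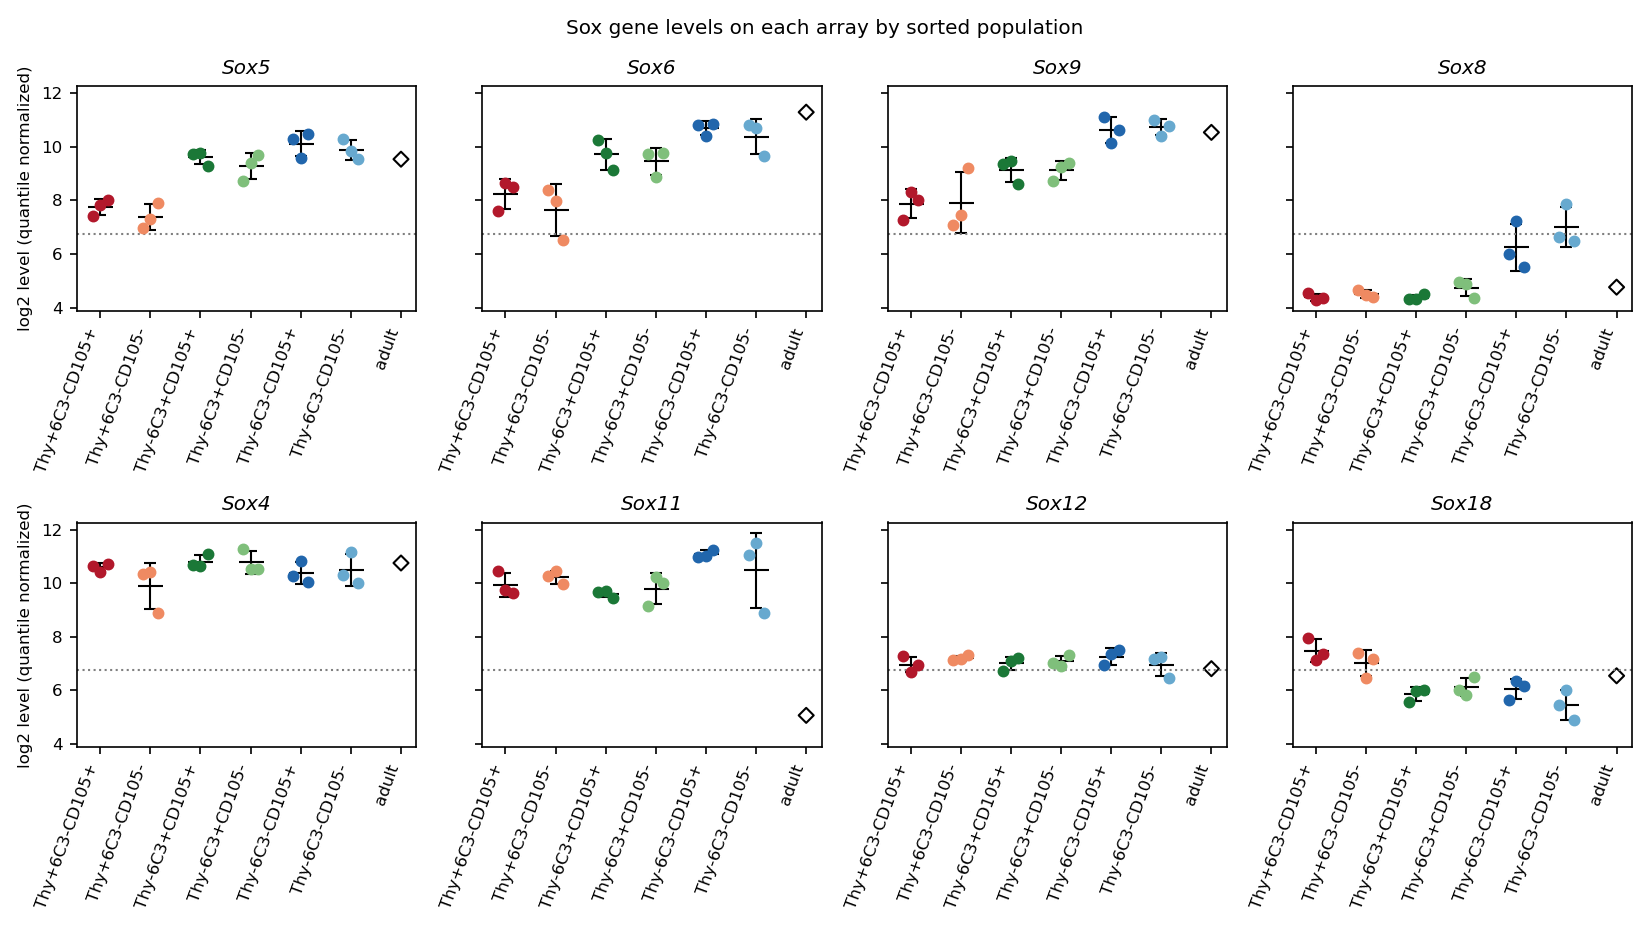
Each panel plots the log2 level of 1 Sox gene (vertical axis) on every array by population (horizontal axis), with Thy+ populations on the left, then 6C3+ and Thy-6C3- populations and the adult array as an open diamond. Bars are the mean and SD of 3 arrays and the dotted line is the median gene mean of 6.76. Sox5, Sox6 and Sox9 lie lowest in the Thy+ populations, Sox8 is raised in the Thy-6C3- populations, and Sox18 is highest in the Thy+ populations.

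Sox5 stood at 7.41, 7.84 and 8.01 on the Thy+6C3-CD105+ arrays and at 10.28, 9.57 and 10.46 on the Thy-6C3-CD105+ arrays. Among CD105- cells it stood at 6.96, 7.31 and 7.92 in Thy+6C3- and at 10.28, 9.83 and 9.53 in Thy-6C3-. Every Thy+ array was thus below every Thy- array of the same comparison. The Thy step, the Thy+6C3- minus the Thy-6C3- population, was -2.35 ± 0.31 (SE) in CD105+ cells, 5.11-fold lower, with an adjusted p of 6.25e-05. In CD105- cells it was -2.49 ± 0.31, 5.60-fold lower, with an adjusted p of 3.58e-05. Not every Sox5 probe set showed this. On another, CD105- cells stood at 8.40 ± 0.93 (SD) in Thy+6C3- and 8.78 ± 0.32 in Thy-6C3-, with overlap. With each probe set tested singly, 4 of 7 Sox5 probe sets fell in the CD105+ step and 3 of 7 in the CD105- step. Over all probe sets 3.88% and 12.3% passed. The 6C3+ populations lay near the top of the range, at 9.74, 9.77 and 9.30 with CD105 and at 8.73, 9.39 and 9.69 without it. Their differences from the Thy-6C3- populations were -0.50 and -0.61 and did not pass (adjusted p = 0.881 and 0.394). In the order of population means, Sox5 had a single gap between neighbours that passed, 1.52 between Thy-6C3+CD105- (9.27 ± 0.49, SD, n = 3) and Thy+6C3-CD105+ (7.75 ± 0.31), with an adjusted p of 0.0084.

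The counts of Sox genes that passed in the Thy steps were 5 of 8 in CD105+ and 5 of 8 in CD105- cells, where 6.66% and 18% of all genes passed. In both steps 4 were lower, Sox5, Sox6, Sox9 and Sox8, and Sox18 was higher. Over all genes 2.63% were lower and 4.03% higher in the CD105+ step, and 7.45% and 10.5% in the CD105- step. The median of all genes moved by -0.02 and 0.13 in the 2 steps. Averaged over CD105, a contrast added after the data were seen, the Thy step was -2.42 ± 0.22 for Sox5, -2.59 ± 0.31 for Sox6, -2.78 ± 0.31 for Sox9 and -2.17 ± 0.25 for Sox8, and 1.5003 ± 0.23 for Sox18, where 16.8% of all genes passed. The largest adjusted p of these 5 was 0.000121, for Sox18. All 5 genes were without overlap between the groups, as were 26.2% and 34.7% of all genes.

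**Figure D2:**
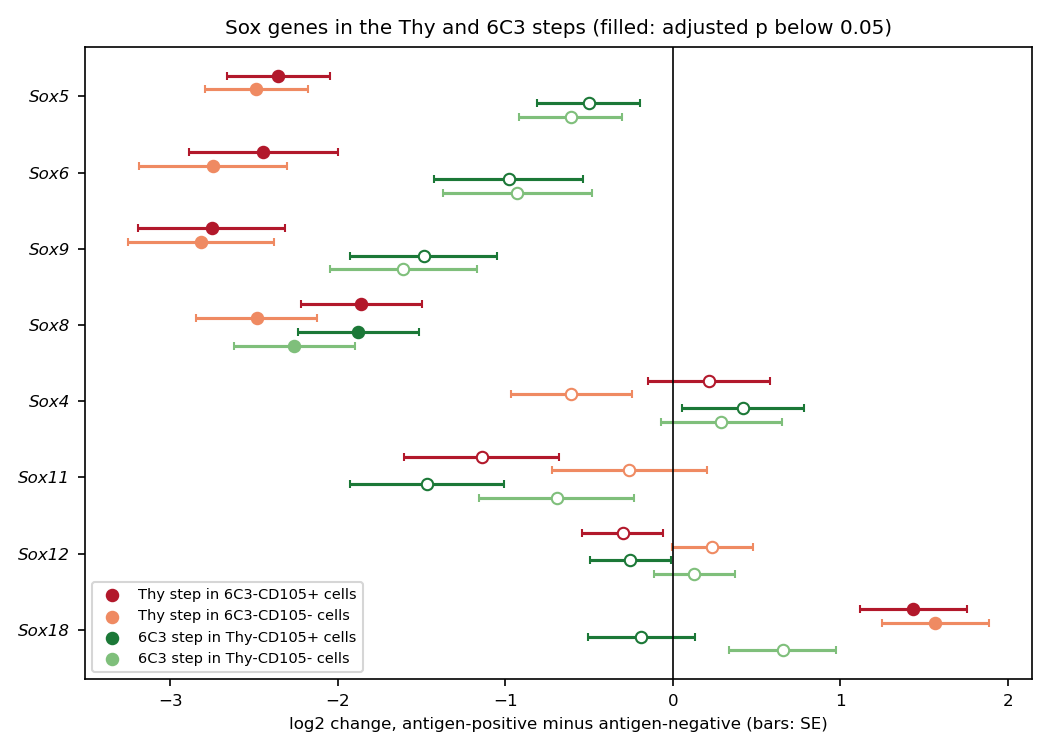
The log2 change of each Sox gene (rows, horizontal axis in log2 units) is drawn for the Thy steps and the 6C3 steps, each as antigen-positive minus antigen-negative cells. Bars are the SE of the fit, and filled points have an adjusted p below 0.05. Sox5, Sox6, Sox9 and Sox8 lie left of 0 in both Thy steps, Sox18 lies right of 0, and Sox8 alone is filled in the 6C3 steps.

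Sox6 followed Sox5 across populations but with wider spread among Thy+ arrays. It stood at 7.60, 8.64 and 8.51 in Thy+6C3-CD105+ against 10.83, 10.40 and 10.86 in Thy-6C3-CD105+ cells. The difference was -2.44 ± 0.44 or 5.44-fold lower (adjusted p = 0.00151). In CD105- cells it stood at 8.39, 7.99 and 6.54 in Thy+6C3- against 10.80, 10.71 and 9.64 in Thy-6C3-, a change of -2.74 ± 0.44 (adjusted p = 0.000493). Thy+6C3-CD105- replicate 3 was the lowest of all arrays for Sox6. The 6C3+ arrays lay between, at 10.27, 9.75 and 9.12 in Thy-6C3+CD105+ and at 9.73, 8.86 and 9.77 in Thy-6C3+CD105-. The 6C3 steps of -0.98 and -0.93 did not pass (adjusted p = 0.6 and 0.363). No neighbouring populations in the order of Sox6 means differed past the test.

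Sox9, the master regulator of cartilage, stood at 7.27, 8.32 and 8.02 in Thy+6C3-CD105+ cells and at 11.12, 10.13 and 10.61 in Thy-6C3-CD105+ cells. The change was -2.75 ± 0.44, 6.74-fold lower, with an adjusted p of 0.000469. Among CD105- cells it stood at 7.09, 7.44 and 9.21 in Thy+6C3- and at 11.01, 10.40 and 10.77 in Thy-6C3-, a change of -2.82 ± 0.44 (adjusted p = 0.000356). Replicate 3 of Thy+6C3-CD105- was thus high for Sox9 within its population, while it was low for Sox6. On the 6C3+ arrays Sox9 lay in the middle, at 9.34, 9.45 and 8.61 with CD105 and at 8.71, 9.25 and 9.40 without it. The 6C3+ arrays did not overlap the Thy-6C3- arrays in either 6C3 step, as for 16.3% and 17.6% of all genes. Those steps were -1.49 ± 0.44 and -1.61 ± 0.44 and did not pass (adjusted p = 0.143 and 0.06). In the same average over CD105, the 6C3 step of Sox9 was -1.55 ± 0.31 (adjusted p = 0.00441), where 5.41% of all genes passed. That contrast gave -0.56 ± 0.22 for Sox5 (adjusted p = 0.193) and -0.95 ± 0.31 for Sox6 (adjusted p = 0.0986). Whether these steps differ between the 3 genes was not tested.

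Sox8, the closest relative of Sox9 in the set, gave signal near the lower quartile of all values (4.52) except on the Thy-6C3- arrays. It stood at 4.53, 4.27 and 4.37 in Thy+6C3-CD105+, at 4.32, 4.31 and 4.49 in Thy-6C3+CD105+, and at 6.00, 7.23 and 5.52 in Thy-6C3-CD105+ cells. Among CD105- cells it stood at 4.66, 4.47 and 4.39 in Thy+6C3-, at 4.95, 4.89 and 4.36 in Thy-6C3+, and at 6.63, 7.85 and 6.49 in Thy-6C3- cells. Every Thy-6C3- array was above every other neonatal array, and the 4 other populations did not differ from each other past the test. The SD of 3 arrays was 0.88 and 0.75 in the CD105+ and CD105- populations of Thy-6C3- cells and 0.10 to 0.32 in the others. The SE below rests on 1 spread estimate for all 6 populations. The Thy steps were -1.86 ± 0.36 and -2.48 ± 0.36 (adjusted p = 0.00264 and 0.000178). The 6C3 steps were -1.88 ± 0.36 and -2.26 ± 0.36 (adjusted p = 0.0106 and 0.00111), so Sox8 fell in the 6C3 steps as well as in the Thy steps. It was the single Sox gene to pass in each 6C3 step, where 1.36% of all genes passed in CD105+ and 2.74% in CD105- cells. Without Thy-6C3+CD105+ replicate 2 the first of these 6C3 calls was lost (adjusted p = 0.0589). The other was lost with arrays grouped by title, which leaves 1 array in Thy-6C3+CD105-. In the order of means, the gap of 1.52 between Thy-6C3-CD105+ and Thy-6C3+CD105- passed (adjusted p = 0.0332) and the other 4 gaps between neighbours did not. Sox8 has 1 probe set on the array.

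Cartilage genes moved with these 4 Sox genes. Of 22 measured genes of chondrocyte matrix, 22 fell in the Thy step of CD105+ cells and 21 in that of CD105- cells, with medians of -2.76 and -2.88. Over all genes, 2.63% and 7.45% fell in the Thy steps, and 1.36% and 2.74% passed in the 6C3 steps in either direction. In the 6C3 steps 11 and 15 of the 22 fell, with medians of -1.07 and -1.39, while the medians of all genes were 0.00 and 0.07. Matn1, which codes for the cartilage matrix protein matrilin-1, changed by -5.95 and -7.17 in the 6C3 steps, and Col9a2, a chain of collagen IX, changed by -3.88 and -4.57 in the Thy steps. Of 9 measured genes of hypertrophic cartilage, 4 and 8 fell in the Thy steps and 3 and 6 in the 6C3 steps. Among these, Ihh, the hedgehog ligand of prehypertrophic cartilage, changed by -2.13 and -2.58 in the Thy steps and by -1.92 and -3.05 in the 6C3 steps.

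The mean level of the 22 chondrocyte genes on single arrays ranged over 9.30 to 9.67 and 9.20 to 9.51 in the Thy+ populations with and without CD105, and over 10.24 to 10.50 and 9.90 to 10.20 in those of 6C3+ cells. It was 11.96 to 12.04 in Thy-6C3-CD105+ cells and up to 12.18 in Thy-6C3-CD105- cells, where every array was above 11.96. Across the 18 neonatal arrays it correlated with Sox9 at r = 0.92, with Sox8 at 0.86, and with Sox5 and Sox6 at 0.82 each. After each population's mean was removed, r was 0.56 for Sox9, 0.49 for Sox5, 0.02 for Sox6 and -0.25 for Sox8. The arrays share 6 populations, so these values describe the samples and carry no p. The mean of the chondrocyte genes separated Thy+, 6C3+ and Thy-6C3- arrays without overlap. The population means of Sox5, Sox6 and Sox9 followed the same order, but their arrays overlapped between some of these classes. Sox5 and Sox6 did not pass between 6C3+ and Thy-6C3- cells, nor did Sox9 within either CD105 class. Sox8 did not pass between Thy+ and 6C3+ cells, and its lowest mean was 4.37, in Thy-6C3+CD105+ cells. The part of the chondrocyte genes in the Sox changes was not tested.

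**Figure D3:**
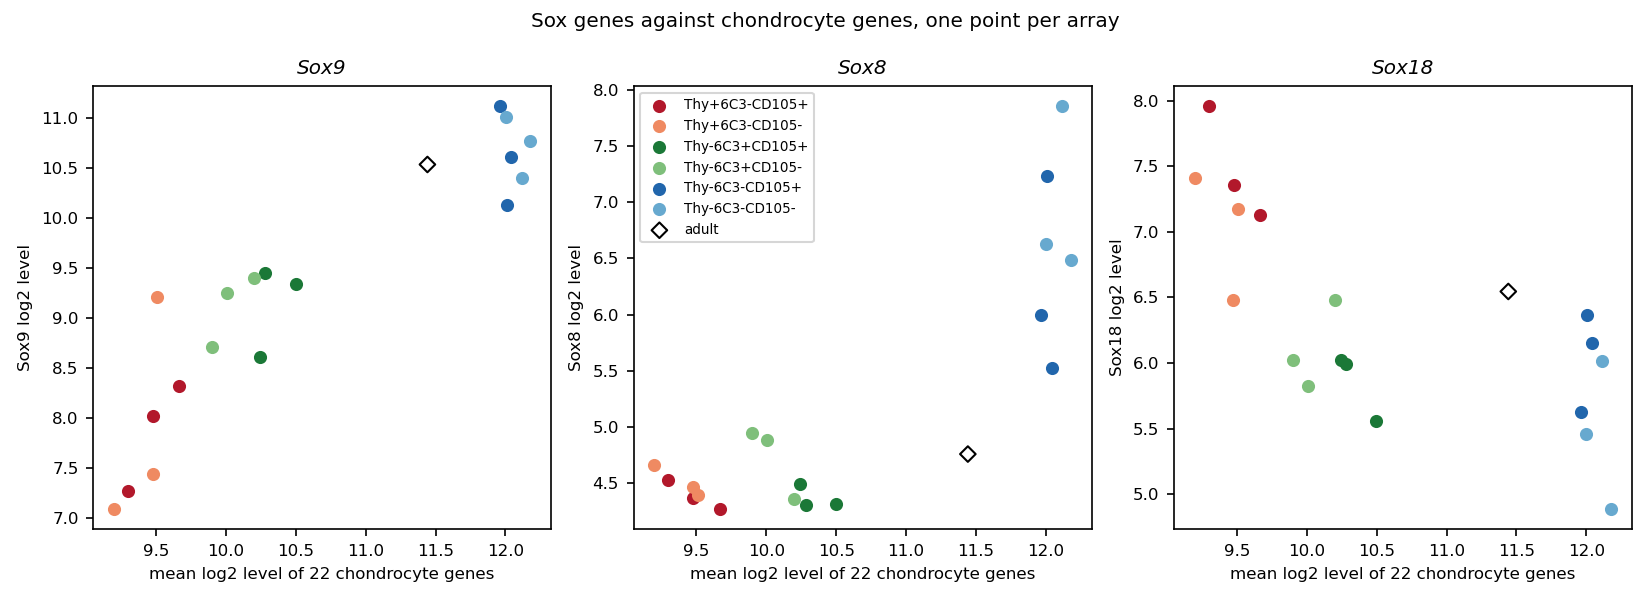
Each point is 1 array, with the mean log2 level of 22 chondrocyte genes on the horizontal axis and the log2 level of Sox9, Sox8 or Sox18 on the vertical axis, coloured by population, with the adult array as an open diamond. Sox9 rises along the axis with the 6C3+ arrays in the middle, Sox8 is raised at the right end alone, and Sox18 is highest at the left end.

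Another list that moved with the Sox genes is that of immediate early genes, which respond within minutes to tissue dissociation and other stimuli. Of 12 measured, 9 fell in the Thy step of CD105+ cells, 11 in that of CD105- cells, and 1 and 2 in the 6C3 steps, with medians of -1.55, -1.97, -1.05 and -0.99. Over all genes, 2.63% and 7.45% fell in the Thy steps, and 1.36% and 2.74% passed in the 6C3 steps in either direction. The mean of the list on single arrays was 10.10 to 10.73 in Thy+6C3-CD105+ and 9.89 to 10.09 in Thy+6C3-CD105- cells. It was 10.58 to 11.65 and 10.21 to 11.41 in the CD105+ and CD105- populations of 6C3+ cells, and 11.81 to 12.48 and 11.64 to 12.29 in those of Thy-6C3- cells. The part of this list in the changes of Sox5, Sox6, Sox9 and Sox8 was not tested.

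Of 24 measured regulators of cartilage and bone, 2 rose and 4 fell in the Thy step of CD105+ cells, and 3 rose and 5 fell in that of CD105- cells, with medians of -0.11 and -0.08. Over all genes, 4.03% rose and 2.63% fell in the CD105+ step, and 10.5% rose and 7.45% fell in the CD105- step. Foxa3 and Foxa2, forkhead factors known for hypertrophic cartilage, changed by -4.23 and -2.44 in CD105+ cells and by -4.41 and -2.65 in CD105- cells. Sp7, the osteoblast factor osterix, changed by -1.40 and -1.70. Twist2, a repressor of osteoblast differentiation, rose by 3.69 and 1.49. In the 6C3 steps Foxa3 changed by -2.32 and -2.84, Foxa2 by -1.96 and -2.38, and Sp7 by -1.20 and -1.75. These 3 regulators passed in the same 4 steps as Sox8.

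Between the Thy+ and the 6C3+ populations, 2 of 8 Sox genes passed with CD105 and 2 without it, where 2.59% and 2.24% of all genes passed. Sox5 was lower in Thy+ cells in both, with a difference of -1.85 ± 0.31 with CD105 (adjusted p = 0.0014) and -1.88 ± 0.31 without it (adjusted p = 0.00203). Sox6 was lower without CD105, with a difference of -1.82 ± 0.44 (adjusted p = 0.037), and with CD105 its difference of -1.46 ± 0.44 did not pass (adjusted p = 0.121). The Sox6 call without CD105 was lost in 12 of 31 alternatives, with adjusted p-values up to 0.32. It was lost without any one of 7 arrays: Thy+6C3-CD105+ replicate 3, Thy+6C3-CD105- replicate 3, Thy-6C3+CD105+ replicate 2, Thy-6C3+CD105- replicate 1 or 3, and Thy-6C3-CD105+ replicate 1 or 3. Without Thy+6C3-CD105- replicate 3, its lowest array, the difference was -1.26 (adjusted p = 0.165). The Sox5 call without CD105 was lost in 2 of 31 alternatives. These were grouping by title, which leaves 1 array in Thy-6C3+CD105-, and the 2 populations fitted alone (adjusted p = 0.104). Sox9 differed by -1.27 and -1.21 and did not pass in either comparison (adjusted p = 0.226 and 0.169). Averaged over CD105, Sox5, Sox6 and Sox9 were lower in Thy+ than in 6C3+ cells, with differences of -1.86, -1.64 and -1.24 (adjusted p = 2.29e-05, 0.00294 and 0.0234), where 5.03% of all genes passed. Sox18 was higher by 1.27 (adjusted p = 0.00166), and Sox8 differed by -0.10 (adjusted p = 0.893).

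Sox18, the vessel-associated SoxF gene, ran the other way. It stood at 7.96, 7.13 and 7.36 in Thy+6C3-CD105+ cells and at 5.63, 6.37 and 6.15 in Thy-6C3-CD105+ cells, a rise of 1.43 ± 0.32 or 2.70-fold (adjusted p = 0.00845). Among CD105- cells it stood at 7.41, 6.48 and 7.18 in Thy+6C3- and at 5.46, 6.02 and 4.89 in Thy-6C3- cells, a rise of 1.57 ± 0.32 or 2.96-fold (adjusted p = 0.00334). No Thy+6C3- array overlapped the Thy-6C3- arrays of its own CD105 class. Without Thy+6C3-CD105+ replicate 1 the first of these calls was lost (adjusted p = 0.0553), as it was without Thy-6C3-CD105+ replicate 1 (adjusted p = 0.0552). The 6C3+ arrays stood at 5.56, 5.99 and 6.03 with CD105 and at 6.03, 5.83 and 6.48 without it. Thy+ cells were higher than 6C3+ cells with CD105 by 1.62 ± 0.32 (adjusted p = 0.00658). That call was lost without Thy+6C3-CD105+ replicate 1 (adjusted p = 0.0503) or Thy-6C3+CD105+ replicate 1 (adjusted p = 0.0519). Without CD105 the difference was 0.91 (adjusted p = 0.156). None of the 5 gaps between neighbouring populations passed for Sox18, nor for Sox9.

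Of 15 endothelial genes measured, 3 rose (Esam, Flt1 and Tek) and 1 fell (Erg) in the Thy step of CD105+ cells, where 4.03% of all genes rose and 2.63% fell. In that of CD105- cells 1 rose (Tek) and 1 fell (Erg), where 10.5% of all genes rose and 7.45% fell. The endothelial genes had medians of -0.13 and 0.38 in the CD105+ and CD105- steps, against -0.02 and 0.13 over all genes. Erg, an endothelial factor that cartilage also expresses, averaged 8.19 and 7.99 in the Thy+6C3- populations and 9.30 and 8.86 in the Thy-6C3- populations. Esam, an adhesion molecule of endothelium and of some other cells, had the largest of these changes, 2.32 in CD105+ cells. Tek, the gene for the excluded antigen Tie2, averaged 5.96 and 6.39 in the Thy+ populations and 4.79 to 4.97 in the others. The mean of the 15 genes on single arrays was 5.73 to 5.93 in Thy+6C3-CD105+ and 5.79 to 5.89 in Thy+6C3-CD105- cells. It was 5.50 to 5.89 in Thy-6C3-CD105+ and 5.44 to 5.63 in Thy-6C3-CD105- cells. Emcn, a marker of capillary endothelium, averaged 4.37 and 4.29 in the Thy+ populations, both below the lower quartile of all values. Pecam1 averaged 4.61 and 5.45 and Cdh5 5.12 and 5.19 in them, and neither passed in a Thy step. Of 4 lymphatic endothelial genes, 0 and 1 rose. Sox7 and Sox17, the other SoxF genes, did not pass in either Thy step. The part of endothelial RNA in the rise of Sox18 was not tested.

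Pericyte and smooth muscle genes rose with Sox18 in the Thy step of CD105+ cells, where 10 of 12 rose and 1 fell (median 1.86). In that of CD105- cells 4 rose and 2 fell (median 0.26). Over all genes, 4.03% rose and 2.63% fell in the CD105+ step, and 10.5% rose and 7.45% fell in the CD105- step. Notch3, the receptor that marks mural cells, rose by 3.60 and Rgs5, a pericyte regulator of G-protein signalling, by 3.36 in CD105+ cells. The mean of the list was 9.94 to 10.12 on the Thy+6C3-CD105+ arrays, 8.34 to 8.48 on the Thy+6C3-CD105- arrays and 8.07 to 8.73 on all other neonatal arrays. Keratinocyte and hair follicle genes averaged 6.04 to 6.61 on the Thy+6C3-CD105- arrays and 5.09 to 5.51 on all others, and 0 and 3 of 9 rose in the Thy steps. Of 10 myeloid and lymphoid genes, 0 and 3 rose in the Thy steps of CD105+ and CD105- cells, and their mean was 6.10 to 6.65 on the Thy+6C3-CD105- arrays and 5.50 to 6.27 on all other neonatal arrays. The highest of these others was Thy-6C3+CD105- replicate 3, within the Thy+6C3-CD105- range. The part of any of these lists in the rise of Sox18 was not tested.

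The SoxC genes gave no call on the probe set that stands for each gene. Sox4 stood at 10.64, 10.42 and 10.73 in Thy+6C3-CD105+, at 10.34, 10.41 and 8.90 in Thy+6C3-CD105-, at 10.27, 10.84 and 10.04 in Thy-6C3-CD105+ and at 10.31, 11.16 and 10.004 in Thy-6C3-CD105- cells. On the 6C3+ arrays it stood at 10.67, 10.65 and 11.08 with CD105 and at 11.29, 10.54 and 10.52 without it. Replicate 3 of Thy+6C3-CD105- was the lowest, as it was for Sox6. None of its 8 probe sets passed singly in the F-test or in a Thy or 6C3 step, and the one that stands for it changed by 0.21 and -0.61 in the Thy steps (adjusted p = 0.888 and 0.238). Sox12 ranged over 6.47 to 7.52 across the 18 arrays, its population means spanned 6.96 to 7.26, and none of its 3 probe sets passed in those tests.

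Sox11, which marks embryonic progenitors of many lineages, differed between its probe sets. The standing probe set was at 10.46, 9.74 and 9.62 in Thy+6C3-CD105+ and at 10.98, 11.01 and 11.25 in Thy-6C3-CD105+ cells, with no overlap but an adjusted p of 0.198. In CD105- cells it was at 10.25, 10.45 and 9.97 in Thy+6C3- and at 11.05, 11.51 and 8.90 in Thy-6C3- cells. Replicate 3 of Thy-6C3-CD105- was thus low, at 8.90. On the 6C3+ arrays this probe set was at 9.67, 9.72 and 9.45 with CD105 and at 9.14, 10.25 and 9.99 without it. On another Sox11 probe set that same array was the highest, at 8.19. There Sox11 was at 5.40, 5.34 and 4.37 in Thy+6C3-CD105-, at 5.59, 6.22 and 4.17 in Thy-6C3+CD105- and at 7.88, 7.62 and 8.19 in Thy-6C3-CD105- cells. This probe set changed by -2.86 in the Thy step of CD105- cells (adjusted p = 0.0013) and by -2.58 in the 6C3 step of CD105- cells (adjusted p = 0.0084), with p-values adjusted over 45037 probe sets.

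Taken singly, 3 of 6 Sox11 probe sets passed the F-test, 4 of 6 fell in the Thy step of CD105- cells and 3 of 6 in the 6C3 step of CD105- cells. None passed in the Thy or 6C3 step of CD105+ cells. Over all probe sets 6.04% passed the F-test, 3.88% and 12.3% the Thy steps of CD105+ and CD105- cells, and 0.577% and 1.54% the 6C3 steps. Averaged over CD105, the standing Sox11 probe set differed by -0.70 in the Thy step and by -1.08 in the 6C3 step, and neither passed (adjusted p = 0.167 and 0.0661). Of the 33 Sox probe sets 13 passed the F-test, 6 of them with means below the median gene. Sox5 passed on 3 of 7, Sox6 on 3 of 4 and Sox9 on 2 of 3. A further Sox9 probe set changed by -2.003 and -2.66 in the Thy steps and by -1.91 in the 6C3 step of CD105- cells (adjusted p = 0.0035). In the 6C3 step of CD105+ cells its change of -0.93 did not pass (adjusted p = 0.431).

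**Figure D4:**
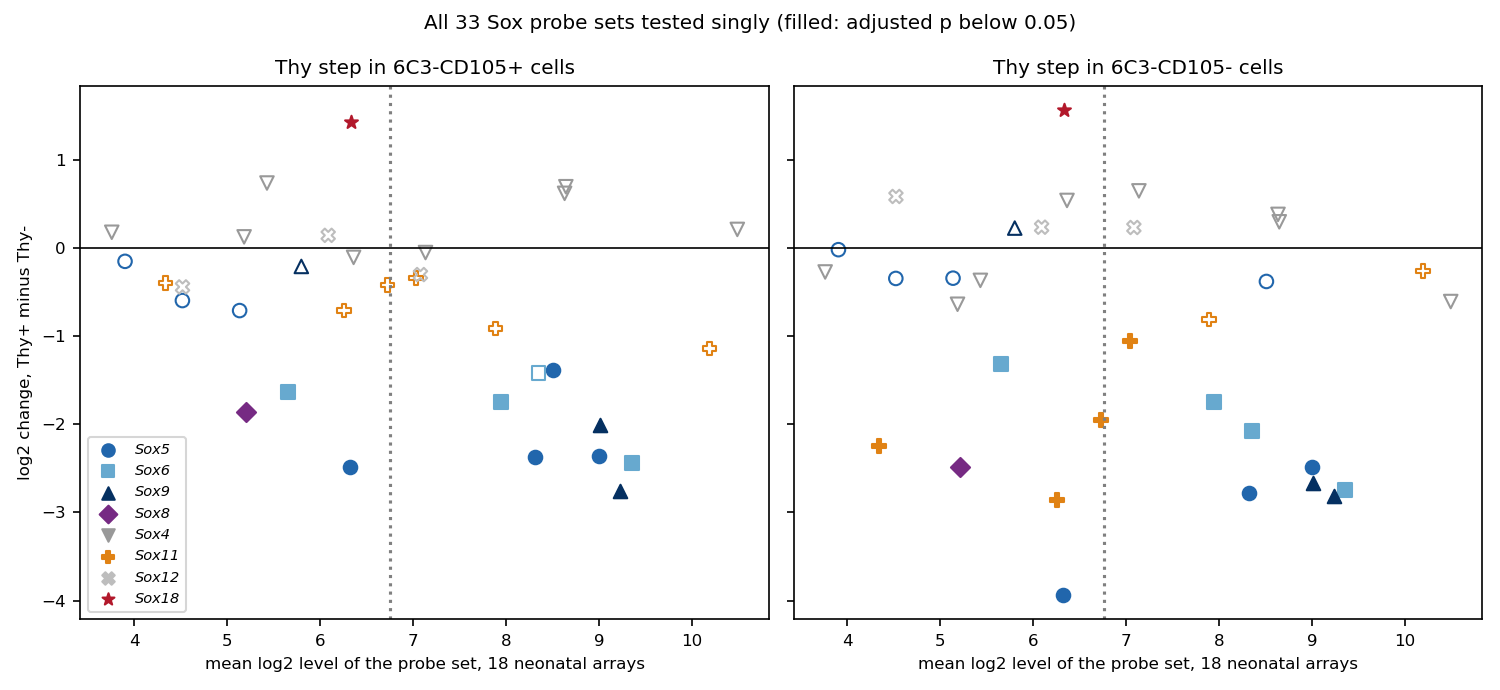
Each symbol is 1 of the 33 Sox probe sets, with its mean log2 level on the horizontal axis and its log2 change in the Thy step on the vertical axis, for CD105+ cells on the left and CD105- cells on the right. Filled symbols have an adjusted p below 0.05 over 45037 probe sets, and the dotted line is the median gene mean. Sox5, Sox6, Sox9 and Sox8 have filled symbols below 0 in both panels, Sox18 lies above 0, and Sox11 has filled symbols in the CD105- panel alone. Filled on the left are 4 of 7 Sox5, 3 of 4 Sox6 and 2 of 3 Sox9 probe sets. On the right they are 3 of 7, 4 of 4 and 2 of 3.

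None of the 8 Sox genes passed the test in a step of CD105 alone. In limma 0 of 8 passed the CD105 step of Thy-6C3- cells, where 0.0055% of all genes passed. In Thy+6C3- cells 0 of 8 passed, against 1.02% of all genes, and in Thy-6C3+ cells 0 of 8, against 0% of all genes. Eng, the gene for CD105 itself, did not pass in any of these CD105 steps either. At an unadjusted p under 0.05 none of the 8 Sox genes passed either, against 1.75%, 22.4% and 2.74% of all genes. The largest changes were -0.74 ± 0.36 for Sox8 in Thy-6C3- cells and 0.71 ± 0.36 for Sox4 in Thy+6C3- cells. Both interactions, of Thy with CD105 and of 6C3 with CD105, called 0 of 8 Sox genes, where 0.269% and 0% of all genes passed, and 16.7% and 2.98% at an unadjusted p under 0.05.

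Within the high and the low poly-A set, the called changes kept their sign. The Thy step of Sox5 was -2.45 and -2.17 in the high and low sets of CD105+ cells, and -2.66 and -2.72 in those of CD105- cells. That of Sox6 was -2.27 and -2.79, and -3.53 and -1.79. For Sox8 it was -1.44 and -2.70, and -2.20 and -2.51, so that Sox6 in CD105- cells and Sox8 in CD105+ cells differed most between the sets. The Thy step of Sox9 was -2.70 and -2.86 in the high and low sets of CD105+ cells, and -2.69 and -3.50 in those of CD105- cells. That of Sox18 was 1.36 and 1.59, and 1.37 and 1.96. The 6C3 step of Sox8 was -1.45 and -2.74, and -2.01 and -2.22. Some of these values compare 1 array with 1 array, so they carry no test.

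The genes whose levels followed each Sox gene most closely over the 18 arrays were taken from 1308 genes that passed the F-test with means above the median gene. For Sox5 they were Hapln1, which codes for a cartilage link protein (r = 0.96), Fbp1 (0.96), Dcx (0.96) and Calml3 (0.95). For Sox6 they were Edil3 (0.96), Ccn1 (0.94), Tfrc (0.94) and Smpd3 (0.93). For Sox9 they were Susd5 (0.96), Fosb (0.94), Papss2, an enzyme of sulfate donor synthesis (0.93), and Ier2 (0.93). Fosb and Ier2 are immediate early genes. Sox8 was followed by Sp7 (0.94), Loxl4 (0.93), Extl1 (0.92) and Mogs (0.92), and Sox18 by Tspan9 (0.92), Basp1 (0.91), Adh7 (0.91) and Galnt16 (0.90). All are correlations over arrays of the same 6 populations, chosen as the highest, and are given as a description.

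Among themselves, Sox5 correlated with Sox9 at 0.90 and with Sox6 at 0.86 over the 18 arrays, and Sox6 with Sox9 at 0.75. Within populations the first stayed at 0.80, while Sox5 with Sox6 gave 0.07 and Sox6 with Sox9 -0.24. Sox18 correlated with Sox9 at -0.76, and at -0.29 within populations.

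On the adult array Sox5 stood at 9.53, Sox6 at 11.29, Sox9 at 10.54, Sox8 at 4.76, Sox4 at 10.75, Sox11 at 5.07, Sox12 at 6.81 and Sox18 at 6.55. Sox6 was above and Sox11 below all 18 neonatal arrays, while the other 6 genes lay within the neonatal range. With a single array there is no replicate check, and age, population and tissue of origin cannot be told apart. The chondrocyte list averaged 11.44 on this array and the proliferation list 6.48, against 8.06 to 9.26 on the neonatal arrays. Sox9 and the chondrocyte list were thus near the Thy-6C3- levels there, while Sox8 was not.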

How the data were processed

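The authors deposited log2 expression values for 19 Affymetrix mouse genome arrays of sorted cells, with RNA amplified before labelling per the labels' protocols. How the scans became log2 values, the genome build and the software are steps not given in the sources used here. Medians of the deposited values differed by more than 0.1, so values were quantile-normalized over the 19 arrays. Array values carry no read counts, and the number of arrays limits the precision. Of 45101 probe sets, 64 controls were left out, 34945 carried 1 gene symbol in the platform annotation, 932 several and 9160 none. Among probe sets of 1 symbol, the one with the highest neonatal mean represented its gene. limma 3.58.1 in R 4.3.3 was fitted with 1 mean for each of 6 populations over the 18 arrays, with 12 residual and 5.38 prior degrees of freedom and a trended prior. Tests were two-sided, with Benjamini-Hochberg adjustment over 18193 genes and a threshold of 0.05. The code was tested on simulated data. Figures were drawn with Python 3.11.15 and matplotlib 3.10.9.

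All 8 Sox genes are named. From each list, at most 4 genes with the largest passing change per comparison are named, besides defining markers of excluded cell types, and for each Sox gene past the F-test the 4 most correlated genes. Of 181 entries in 15 gene lists, 173 were measured. Members and lists were chosen with earlier results of these data known. Steps averaged over CD105, probe sets tested singly and the omission of both arrays of highest median were added after seeing the data. Other alternatives covered scaling, choice of probe set, a filter on low genes, array weights, blocks, grouping by title and the omission of single arrays. Promoter windows came from RefSeq.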

Additional observations from a re-analysis of the deposited data

Results flagged for a closer look

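Sox6 and Sox11 stood apart on the single adult array, which no comparison uses. Sox6 was at 11.29 there, above its highest neonatal value of 10.86. Sox11 was at 5.07, below its lowest neonatal value of 8.90, and at 3.82 and 5.21 on a pair of its other probe sets, whose neonatal values ran from 4.17 to 8.19 and from 6.37 to 9.08. Age and sorted population differ together between this array and the others, and its labels name limb as well as sternum and ear. Age, population and a possible difference in tissue cannot be told apart.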

How the results depend on the processing

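Of 489 values of 16 named Sox changes recomputed under the alternatives, 469 kept their direction and their side of the threshold, 20 kept their direction but missed the threshold, and 0 reversed. The Thy steps of Sox5, Sox6 and Sox9 held in 31 of 31 alternatives each and those of Sox8 in 30 of 30. Deviations of arrays of the same replicate number had a median r of 0.03 over 45 pairs (-0.56 to 0.67), against 0.01 over 90 other pairs. Of 18 arrays, 7 had their highest mean r with arrays of their own number. These values do not settle whether some arrays were paired. With replicate number as a block the counts were 5, 5 and 5 for the F-test and both Thy steps, as without it. They were 1 and 1 for the 6C3 steps and 2 and 2 for Thy+ against 6C3+, also as without it. As reported, the count in each 6C3 step was 1. In CD105+ cells the 6C3 count was 3 with probe sets averaged, with array weights or with the compared populations alone, 2 with the poly-A block or without both arrays of highest median, and 0 among genes above the median gene mean. In CD105- cells it was 4 with probe sets averaged and 3 with the poly-A block. It was 2 with values as deposited, a common median, array weights, the compared populations alone or without both arrays of highest median. Grouping by title lowered it, with 1 array left in Thy-6C3+CD105-. For Thy+ against 6C3+ with CD105, the count of 2 became 4 with probe sets averaged, array weights, the compared populations alone or without both arrays of highest median, and 1 among genes above the median gene mean. Without CD105 it became 1 with probe sets averaged or tested singly, and 0 with the compared populations alone. It also fell with grouping by title, which leaves that same 1 array. Among genes above the median gene mean, which leaves out Sox8 and Sox18, the F-test and both Thy steps called 3 each. Leaving out 1 array gave 5 to 6 for the F-test, 4 to 6 and 5 to 6 for the Thy steps with and without CD105, 0 to 2 and 1 to 2 for the 6C3 steps, 1 to 4 and 1 to 2 for Thy+ against 6C3+, and 0 for all CD105 steps and interactions. The 6C3 count with CD105 was 0 without Thy-6C3+CD105+ replicate 2 and 2 without Thy+6C3-CD105- replicate 3 or Thy-6C3-CD105- replicate 3. The 6C3 count without CD105 was 2 without either of those last 2 arrays or Thy+6C3-CD105- replicate 1. Thy+ against 6C3+ with CD105 gave 4 without Thy+6C3-CD105- replicate 3 and 1 without Thy+6C3-CD105+ replicate 1 or Thy-6C3+CD105+ replicate 1. The causes of these shifts were not tested, apart from the genes left out by the filter.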

Other observations

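The array holds 11 other Sox genes, of which 1 passed the F-test and 2 had means above the median gene. Over all genes, 10.1% passed that test. Sox2, known from neural and epithelial stem cells, averaged 4.44 ± 0.37 in Thy+6C3-CD105+ cells (SD of 3 arrays) and 3.36 to 3.72 in the other neonatal populations, and rose by 1.04 in the Thy step of CD105+ cells (limma adjusted p = 0.000209). It was also higher in that population in the CD105 step of Thy+6C3- cells, by 0.71 (adjusted p = 0.0301), and against Thy-6C3+CD105+ cells, by 1.02 (adjusted p = 0.000545). All its values, 3.24 to 4.83, are low on this array. Sox21 averaged 8.03 and Sox10, a gene of neural crest and Schwann cells, 7.19 over the 18 neonatal arrays, and neither passed the F-test (adjusted p = 0.21 and 0.146). In the Thy step of CD105- cells Sox21 was higher by 0.66 (limma adjusted p = 0.0306). It stood at 8.49 ± 0.29 in Thy+6C3- and at 7.83 ± 0.02 in Thy-6C3- cells. Over all genes, 4.03% rose in the Thy step of CD105+ cells and 10.5% in that of CD105- cells.

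Of 12 genes of cell division measured, 1 rose in the Thy step of CD105+ cells, where 4.03% of all genes rose, and 5 rose in that of CD105- cells, where 10.5% of all genes rose. Their mean was 8.47 to 9.03 on the Thy+6C3-CD105- arrays and 8.06 to 8.46 on the Thy-6C3-CD105- arrays.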
